A study of Mus musculus with 12 samples.

Results

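The semaphorins, plexins, neuropilins, ephrins, Eph receptors, netrins and netrin receptors were read in cultured neural stem cells of the mouse hippocampus. The members were taken by gene symbol: semaphorins of classes 3 to 7, plexins A to D, both neuropilins, EphA and EphB receptors, ephrins A and B, the netrins Ntn1, Ntn4 and Ntn5, the Unc5 receptors and Dcc. This gave 61 of the 34745 genes in the deposited table, and 55 of them passed the filter on low counts. Poly-A RNA was sequenced from 12 libraries of wild type C57BL/6 cells, all grown with EGF and bFGF at 20 ng/ml each, B27 and heparin. Early cultures were at passage 2 (P2, n = 4). Late cultures were at passage 10 and had been given, starting at passage 2, either vesicles shed by embryonic stem cells (ESC-sEVs; called vesicle cultures, P10 EV, n = 4) or an equal volume of PBS (called saline cultures, P10 PBS, n = 4). The age of the mice is not in the labels, nor is it said that the libraries of a group came from separate animals. The p-values then measure only the spread between these samples, which may be technical.

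These genes encode cues and receptors that steer axons and migrating cells. Semaphorins signal through plexins, and most secreted class 3 members also need a neuropilin. Ephrins sit on the cell surface and act on contact through Eph receptor tyrosine kinases, with signals into both cells. Netrin 1 attracts axons through Dcc and repels them through Unc5 receptors. In the neurogenic zones of the brain, ephrins and Eph receptors are known to act on the proliferation and placement of neural stem cells and their progeny.

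The libraries held 10736538 to 16807647 counts. Levels within a gene are given as CPM, the counts scaled by the adjusted library total. Sox2 and Nes, which mark neural stem cells, lay between 180.0 and 417 CPM and between 360.0 and 978 CPM, and Aif1 of microglia reached at most 0.169 CPM. The early libraries were unequal: Sox10, which drives the oligodendrocyte lineage, lay at 5.28, 108, 119 and 55.1 CPM in replicates 1 to 4, with replicate 1 in the range of the late libraries. Alb, a liver transcript, lay between 16.3 and 21.5 CPM in early replicates 1 and 2, saline replicate 1 and vesicle replicate 1, and at most at 0.145 CPM elsewhere. In bulk RNA, fewer cells of a type and less RNA per cell cannot be told apart.

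Receptors of semaphorins and the netrins were the most abundant members. Levels of different genes are compared as the deposited FPKM, which divide by gene length and library total. Plxnb2, a receptor of class 4 semaphorins, had the highest mean over the 12 libraries, 60.8 FPKM. It was followed by Ntn1 (netrin 1) at 27.5 FPKM, Plxna1, which pairs with neuropilins, at 22 FPKM, Plxnb1, the receptor of Sema4d, at 19.9 FPKM and Ntn4, a netrin of basement membranes, at 15.4 FPKM. Among semaphorins the transmembrane members led: Sema5b, Sema4b, Sema6d and Sema6a stood at 12.3, 12.2, 11.6 and 8.73 FPKM, against 3.19 FPKM for Sema3a, the highest of the secreted class 3. The highest Eph receptors were Ephb3 and Epha5, at 5.41 and 5.22 FPKM, and the highest ephrins Efnb1 and Efnb2, at 7 and 5.32 FPKM. Of the netrin receptors, Unc5b stood at 5.52 FPKM, Dcc at 4.19 FPKM and Unc5a at 3.35 FPKM. Too low to test were Epha6 with 1 read in all libraries, Epha8 with 3, Ntn5 with 13, Sema3g with 37, Sema4f with 61 and Sema3e with 67.

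The sums of most families overlapped between the groups. All 61 members together came to 324 ± 28.4 FPKM in early cultures (mean ± SD, n = 4), 329 ± 8.7 FPKM in saline cultures and 310.0 ± 26.6 FPKM in vesicle cultures. Plexins B made up 88.3 ± 9.76, 89.2 ± 9.66 and 84.8 ± 7.73 FPKM of these sums in the same order. The EphA receptors were the 1 family of 16 whose libraries lay apart between any pair of groups. Their sum was 9.64, 10.7, 12.2 and 12.9 FPKM in the early libraries, 6.93, 8.34, 7.7 and 7.45 FPKM in the saline libraries and 6.77, 8.14, 7.14 and 9.65 FPKM in the vesicle libraries. Every saline library was below every early one, and 1 vesicle library reached the early range. No test was made of these sums, in which Epha5 holds the largest share. Epha5 itself overlapped, with a lowest early value of 4.36 FPKM and a highest saline value of 4.86 FPKM. All 16 families were looked at in 3 comparisons, and no share over all genes stands beside such sums. The separation is therefore not read as a result about the family.

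**Figure D1:**
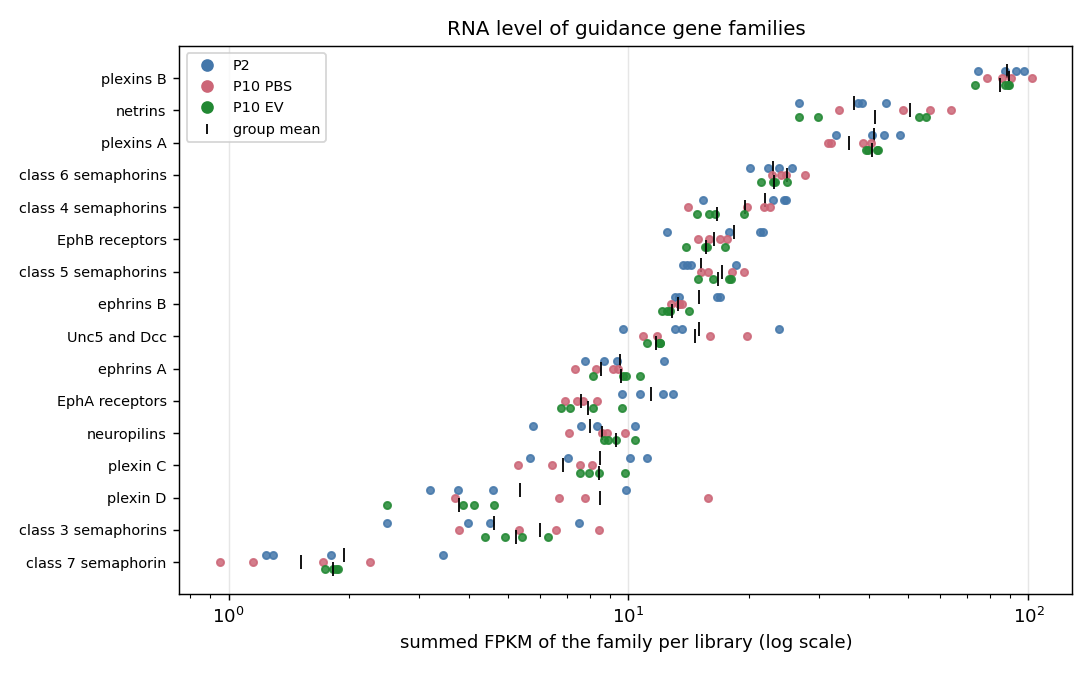
Summed FPKM (log axis) of each family in each of the 12 libraries, with 1 point per library, coloured by group, and a tick at the group mean. Families span from plexins B, at a mean of 88.3 FPKM in early cultures, to the class 7 semaphorin at 1.94 FPKM, and all early points of the EphA receptors lie to the right of the saline points.

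Saline cultures at passage 10 were first set against early cultures at passage 2. Efna5 (ephrin-A5), a lipid-anchored ligand of EphA receptors known as a repulsive cue, fell, and no other member passed the test (edgeR's quasi-likelihood test, Benjamini-Hochberg adjusted p under 0.05 over 16058 genes). That is 1 of 55 members, against 0.928% of all genes tested, a share near the background. At an unadjusted p under 0.05 there were 12 members, or 21.8%, against 13.6% of all genes; 10 of these were lower in saline cultures, against 7.65% of all genes. Fold changes were below 0 for 36 members (65.5%), against 51.2% of all genes, and their median was -0.17 on the log2 scale against -0.01.

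Efna5 (ENSMUSG00000048915; chromosome 17, 62604184 to 62881317, minus strand) was read with few counts, 571 over all libraries. It lay at 3.99, 4.16, 4.82 and 4.86 CPM in the early libraries, at 1.16, 1.56, 1.59 and 1.96 CPM in the saline libraries and at 3.37, 2.6, 6.17 and 6.27 CPM in the vesicle libraries. Every saline library was below every library of the other groups, and the vesicle libraries spread to both sides of the early ones. The log2 fold change of saline over early cultures was -1.50 ± 0.31 (SE), with an edgeR adjusted p of 0.0396. The call was lost when early replicate 2, 3 or 4 or any saline library was left out, at fold changes of -1.63 to -1.37 and adjusted p of 0.0544 to 0.124. It was also lost with limma-voom (adjusted p = 0.0618), with limma-trend on FPKM (0.077) and with the 8 libraries alone (0.0562). Without early replicate 1, the library with low Sox10, the fold change was -1.55 (adjusted p = 0.0225). Under that setting 1206 genes were called, against 149 on all 12 libraries.

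The start regions of Efna5, Ephb6 and Epha3 are shown because these had the smallest adjusted p among ephrins and Eph receptors here, and because the study's title names SMADs and the zinc-finger factor Myt1. Each runs from 250 bases before to 50 bases after the start, from RefSeq on build GRCm38.p6, 5′ to 3′ on the gene's strand. Capitals mark AAGTT, the core letters of Myt1 sites, or its reverse complement, and GGCGCC, a GC-rich element of SMADs that reads the same on both strands.
Efna5 (chr17:62881268-62881567, minus strand): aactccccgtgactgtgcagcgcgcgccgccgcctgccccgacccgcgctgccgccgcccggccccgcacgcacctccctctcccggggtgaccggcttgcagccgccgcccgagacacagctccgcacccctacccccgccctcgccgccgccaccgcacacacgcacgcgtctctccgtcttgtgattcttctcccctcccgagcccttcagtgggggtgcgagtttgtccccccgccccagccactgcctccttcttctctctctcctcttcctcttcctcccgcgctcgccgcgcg
Ephb6 (chr6:41605261-41605560, plus strand): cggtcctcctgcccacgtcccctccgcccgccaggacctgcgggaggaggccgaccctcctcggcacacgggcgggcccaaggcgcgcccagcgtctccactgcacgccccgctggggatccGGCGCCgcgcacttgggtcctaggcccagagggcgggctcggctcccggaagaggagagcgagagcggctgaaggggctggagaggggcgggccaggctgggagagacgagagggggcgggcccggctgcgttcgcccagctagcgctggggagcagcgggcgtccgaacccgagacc
Epha3 (chr16:63864126-63864425, minus strand): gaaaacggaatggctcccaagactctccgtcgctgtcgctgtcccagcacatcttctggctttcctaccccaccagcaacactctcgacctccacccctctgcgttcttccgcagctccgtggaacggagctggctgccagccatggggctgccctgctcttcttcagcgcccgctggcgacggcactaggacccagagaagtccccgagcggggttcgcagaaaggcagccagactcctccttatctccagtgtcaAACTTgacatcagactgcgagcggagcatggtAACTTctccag
The window of Efna5 held neither run of letters, that of Ephb6 held GGCGCC at 1 place, and that of Epha3 held AAGTT at 2 places, both on the other strand. Entries were found for 52 of the 61 members, with 66 windows. AAGTT on either strand was in 31.8% of them and in 39.3% of all 32817 windows of this length. GGCGCC was in 22.7% of member windows and in 11.9% of all, and the palindrome GTCTAGAC of SMADs in 0% and 0.2%. The longer AAAGTTT of Myt1, which holds AAGTT, was in 6.1% of member windows and in 4.7% of all. The median share of G and C was 64.3% in member windows and 52.7% in all. Such matches describe letters and are not sites of binding.

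Eph receptors were mostly lower in saline cultures, without a call. Of 12 tested, 11 had fold changes below 0, with a median of -0.38 against -0.01 over all genes, among them 7 of 7 EphA receptors, from -2.12 to -0.12. None passed edgeR's test, 5 had an unadjusted p under 0.05 (Epha1, Epha3, Epha5, Epha7 and Ephb6), and DESeq2 called Epha3 and Ephb6. In all, DESeq2 called 5 of the 58 members to which it gave an adjusted p, or 8.62%, against 3.14% of 19029 genes. Libraries of the groups did not overlap in 7 members (12.7%), against 5.7% of all genes. In 6 of these the fold was at least 2, all lower in saline cultures, which is 10.9% of the members against 2.28% of all genes: Efna5, Ephb6, Epha3, Efnb3, Unc5d and Epha7. For Epha7 the margin was narrow, at 1.9 CPM in early replicate 2 and 1.87 CPM in saline replicate 3. In FPKM these libraries overlapped, at 0.151 and 0.153. Low genes were filtered over all 12 libraries at a minimum count of 10, so a gene can enter through its early libraries. Epha3 had 3 to 9 reads per saline library, against 19 to 42 per early one. Unc5d had 7 to 12, against 20 to 24. The filter was the same for all genes, and its part in these shares was not tested.

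Ephb6, an EphB receptor that lacks kinase activity, lay at 11.3, 20.4, 26.6 and 17.2 CPM in the early libraries, 9.13, 9.64, 9.54 and 6.39 CPM in the saline libraries and 10.5, 10.7, 16.4 and 11.5 CPM in the vesicle libraries. Both other groups were above every saline library, and early replicate 1 was the lowest of its group. The log2 fold change of saline over early cultures was -1.12 ± 0.26 (SE; edgeR adjusted p = 0.0637; DESeq2 0.00293). It was called without early replicate 1 (-1.30, adjusted p = 0.0112), a setting that called 1206 genes, against 149 on all 12 libraries.

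Epha3, a receptor of ephrin-A5, was near the limit of detection, with 3 to 9 reads in each saline library. It lay at 3, 1.39, 2.62 and 2.06 CPM in the early libraries, 0.409, 0.643, 0.842 and 0.218 CPM in the saline libraries and 1, 1.26, 0.164 and 0.373 CPM in the vesicle libraries. Every late library was below every early one. The fold change of saline over early cultures was -2.12 ± 0.54 (SE; edgeR adjusted p = 0.0954; DESeq2 0.014), and that of vesicle over early cultures -1.68 ± 0.52 (edgeR adjusted p = 0.128; DESeq2 0.0485).

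Efnb3 (ephrin-B3), known as a midline barrier to axons, stood at 4.06, 9.42, 6.94 and 5.44 CPM in the early libraries, 2.18, 2.3, 3.93 and 3.78 CPM in the saline libraries and 3.07, 4.11, 4.36 and 4.16 CPM in the vesicle libraries. Its lowest early library, again replicate 1, was just above the highest saline one. The fold change of -1.09 ± 0.30 (SE) was not called by edgeR (adjusted p = 0.118). It was called without early replicate 1 (-1.25, adjusted p = 0.0256) and by DESeq2 (adjusted p = 0.0234). These settings called 1206 and 597 genes, against 149 in the main fit.

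Unc5d, a netrin receptor that also binds Flrt proteins, lay at 1.64, 1.46, 2.03 and 1.65 CPM in the early libraries, 0.477, 0.643, 1.12 and 0.581 CPM in the saline libraries and 0.709, 0.756, 1.81 and 2.36 CPM in the vesicle libraries. Epha7, a further receptor of ephrins A, lay at 4.35, 1.9, 3.13 and 4.37, 0.817, 0.551, 1.87 and 1.74 and 0.532, 0.924, 3.78 and 3.79 CPM in the same order. In both genes, as in Efna5, vesicle replicates 3 and 4 were above replicates 1 and 2. The fold changes of saline over early cultures were -1.27 ± 0.43 (SE) for Unc5d and -1.46 ± 0.60 for Epha7 (edgeR adjusted p = 0.219 and 0.312).

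**Figure D2:**
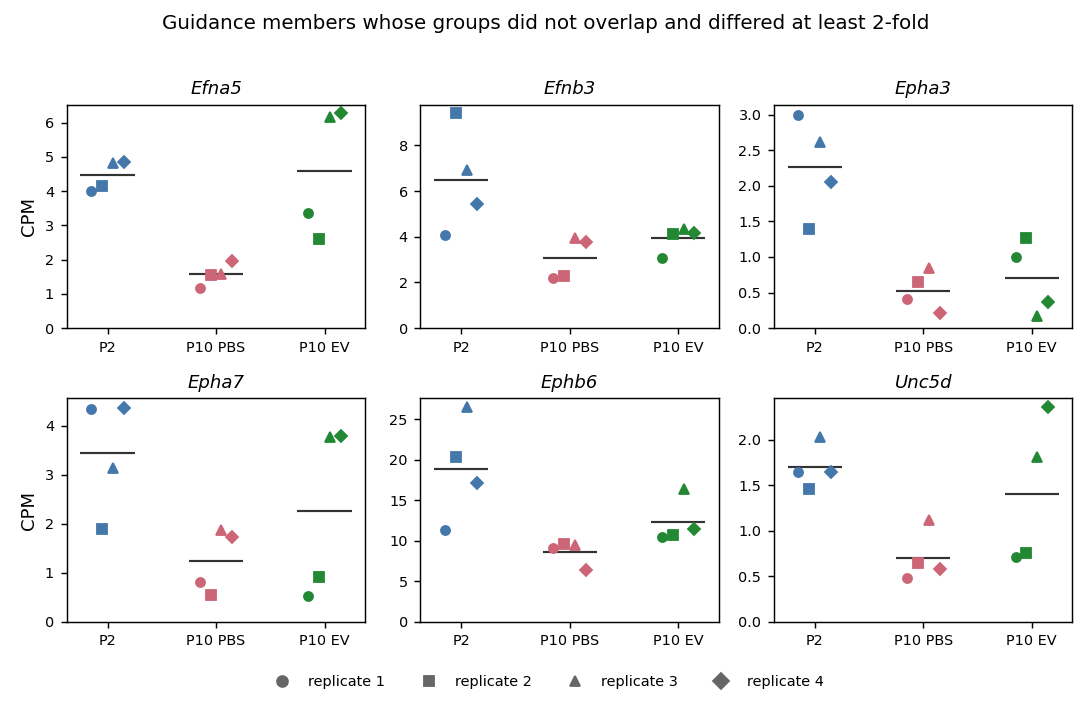
CPM (linear axis from 0) of the 6 members whose early (P2) and saline (P10 PBS) libraries did not overlap at a fold of at least 2, with 1 point per library, the shape giving the replicate number, and a line at the group mean. All saline points lie below the early points in each panel, and vesicle (P10 EV) replicates 3 and 4 stand above 1 and 2 in Efna5, Epha7 and Unc5d.

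Markers of other cells were read beside these members. In vesicle replicates 1 to 4 the 13 oligodendrocyte markers summed to 2980, 2880, 2890 and 2630 CPM, and the 12 neuronal markers to 601, 575, 529 and 710.0 CPM, so neither sum was highest in both replicates 3 and 4. Pdgfra and Dcx, 1 marker of each list picked after their values were seen, were highest in these replicates, at 24.3, 25, 63.3 and 58.3 CPM for Pdgfra and 8.39, 4.11, 10.7 and 19 CPM for Dcx. So was Sox10 of the oligodendrocyte list, at 7.09, 3.95, 18.9 and 9.56 CPM. Other markers of these lists were not highest in both replicates. Mbp lay at 1.42, 2.6, 3.62 and 1.86 CPM, and Tubb3 at 8.99, 7.22, 9.04 and 7.82 CPM. Between saline and early cultures, 2 of 11 tested oligodendrocyte markers fell (Sox10 and Matn4), 1 of 3 meningeal markers rose, and 0 of 10 neuronal, 0 of 8 astrocyte and 0 of 10 stem cell markers were called by edgeR. Fold changes of the tested oligodendrocyte markers were below 0 for 9 of 11, with a median of -1.18, and of the astrocyte markers for 6 of 8, with a median of -0.89. The medians were -0.38 for neuronal and -0.10 for stem cell markers. Olig1 and Olig2 made up most of the summed level of the oligodendrocyte markers, and neither was called. The 13 oligodendrocyte markers summed to 2340 to 3730 CPM in early cultures, 2390 to 3140 CPM in saline cultures and 2630 to 2980 CPM in vesicle cultures. The 12 neuronal markers summed to 625 to 824, 542 to 817 and 529 to 710.0 CPM, and the 8 astrocyte markers to 988 to 4280, 1120 to 1950 and 867 to 1050 CPM. The 8 meningeal markers, which share Pdgfra with the oligodendrocyte list and of which Lum had no read, summed to 22.1 to 146, 39.3 to 58.4 and 42.3 to 81.9 CPM. Their part in the results on the members was not tested.

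No semaphorin, plexin, neuropilin or netrin was called between saline and early cultures by edgeR. Sema6a, a transmembrane semaphorin that binds plexins A2 and A4, was the 1 member higher in every saline library than in every early one. It lay at 165, 167, 165 and 176 CPM in the early libraries, 260.0, 182, 251 and 204 CPM in the saline libraries and 193, 177, 188 and 162 CPM in the vesicle libraries, with a fold change of 0.42 ± 0.12 (SE; adjusted p = 0.155). Ntn1 stood at 161, 167, 76 and 110.0 CPM in the early libraries, 135, 236, 366 and 305 CPM in the saline libraries and 270.0, 109, 294 and 88.7 CPM in the vesicle libraries, and its groups overlapped. Its fold change of 1.02 ± 0.41 (adjusted p = 0.3) was the highest of the members. Without the 4 libraries with liver transcripts it came to 1.71 and was called by edgeR (adjusted p = 0.0463). That setting leaves out early replicates 1 and 2, the highest early values of Ntn1, and saline replicate 1, its lowest saline value. It called 2320 genes, against 149 on all 12 libraries. The 11 plexins and neuropilins had fold changes from -0.35 to 0.69, and the 5 tested class 4 semaphorins were all below 0, with a median of -0.24.

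None of the leading members of the other families was called in any comparison by edgeR on all 12 libraries. As mean ± SD of 4 libraries in early, saline and vesicle cultures, Plxnb2 stood at 561 ± 93.6, 579 ± 46.2 and 509 ± 52.6 CPM, and Plxna1 at 285 ± 38.9, 224 ± 50.3 and 242 ± 23.3 CPM. Plxnc1, the receptor of Sema7a, stood at 71.3 ± 21.9, 57.4 ± 9.61 and 68.1 ± 7.29 CPM, and Sema7a itself at 6.51 ± 3.54, 5.06 ± 1.88 and 5.87 ± 0.257 CPM. Sema6d stood at 221 ± 19, 227 ± 19.2 and 226 ± 22 CPM, Sema5b at 116 ± 22, 127 ± 19.2 and 128 ± 14.6 CPM, and Sema4b at 114 ± 25.9, 107 ± 32.3 and 83.6 ± 13.7 CPM. Sema3a, which collapses growth cones, stood at 50.2 ± 19, 65.5 ± 21.2 and 51.6 ± 11 CPM. Among contact cues, Ephb3 stood at 56.8 ± 14, 50.3 ± 11.3 and 48.1 ± 5.28 CPM and Efna2 at 9.38 ± 0.526, 8.76 ± 1.72 and 10.4 ± 1.15 CPM. Epha5, the leading EphA receptor, lay at 119, 97.8, 185 and 181 CPM in the early libraries, 59.9, 104, 98.3 and 101 CPM in the saline libraries and 86.5, 98.3, 84.9 and 141 CPM in the vesicle libraries. The groups overlapped, with 3 of 4 saline libraries just inside the early range, and the fold change was -0.68 ± 0.25 (SE; edgeR adjusted p = 0.246). Without the 4 libraries with liver transcripts, edgeR called Epha5 lower in saline (-0.86, adjusted p = 0.0232) and in vesicle cultures (-0.75, 0.0279) than in early ones; under that setting 2320 and 3335 genes were called. A pseudogene on the other strand of Epha5 had 1948 counts against its 17765, and an antisense gene of Plxna1 1288 against 40033; the strand setting of the counting is not given, so such reads cannot be told apart.

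**Figure D3:**
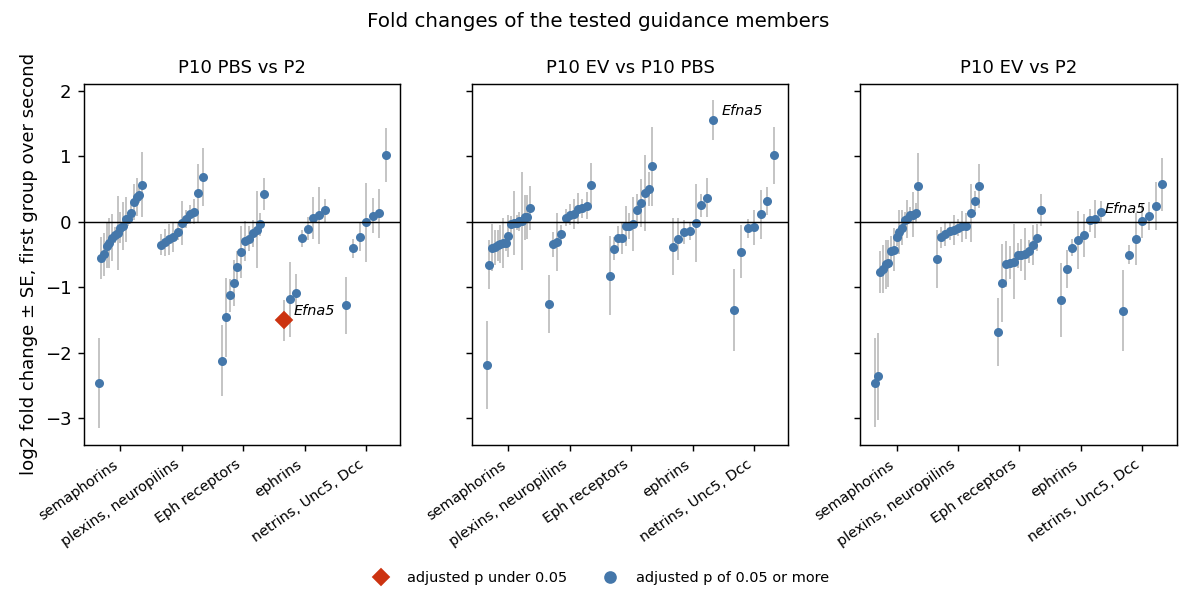
Log2 fold changes (first group over second, bars ± SE) of the 55 tested members in the 3 comparisons. The red diamond, Efna5 at -1.50 in saline (P10 PBS) over early (P2) cultures, is the 1 call, and in vesicle (P10 EV) over saline cultures Efna5 is the highest point, at 1.55.

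Vesicle and saline cultures were compared at the same passage. No member was called by edgeR, and neither was any other gene (0% of 16058). DESeq2 called 1 member, Efna5, against 0.352% of 17621 genes, and limma-voom and limma-trend 0. At an unadjusted p under 0.05 there were 7 members, or 12.7%, against 7.24% of all genes, and 32 members (58.2%) were below 0, against 48.5% of all genes. Efna5 was higher in 4 of 4 vesicle libraries than in any saline one, by 1.55 ± 0.31 on the log2 scale (SE; edgeR unadjusted p = 0.000234, adjusted p = 0.269; DESeq2 adjusted p = 0.00498). Over all settings its adjusted p ran from 0.00498 to 0.998. This value and the fall of Efna5 from early cultures share the same 4 saline libraries.

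The groups did not overlap in 3 members, Efna5, Ephb6 and Nrp1, which is 5.45% against 7.58% of all genes. Ephb6 was higher in vesicle cultures by 0.50 ± 0.26 (SE; edgeR adjusted p = 0.743). Nrp1, the neuropilin that binds Sema3a and VEGF, lay at 36.6, 31.8, 30.0 and 31.6 CPM in the saline libraries and 28.2, 29, 18.3 and 26.8 CPM in the vesicle libraries (-0.34 ± 0.18, adjusted p = 0.744). The early libraries, at 33.1, 34.4, 28.8 and 20.3 CPM, overlapped both.

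The lowest fold changes of vesicle over saline cultures belonged to Sema3f, Unc5b and Plxnd1, of which Sema3f was named after its values were seen. The secreted Sema3f had 1, 2, 6 and 2 reads in the vesicle libraries and 10.0, 5, 9 and 24 in the saline libraries, a fold change of -2.19 ± 0.67 (SE; edgeR adjusted p = 0.55). Plxnd1, the receptor of Sema3e, lay at 138, 29.8, 55.5 and 64.3 CPM in the saline libraries and 37.7, 31.1, 32.6 and 19.7 CPM in the vesicle libraries (-1.25 ± 0.45, adjusted p = 0.601). Unc5b, which also acts in vessels, lay at 23, 12.7, 54.4 and 72.8 CPM in the saline libraries and 11.5, 23.1, 20.7 and 9.13 CPM in the vesicle libraries (-1.34 ± 0.62, adjusted p = 0.686). In saline cultures Plxnd1 was highest in replicate 1, while Unc5b was highest in replicates 4 and 3 and stood at 23 CPM in replicate 1. In early cultures Plxnd1 and Unc5b both peaked in replicate 2, at 84.1 and 92.7 CPM. The 10 endothelial and mural markers, each with reads, summed to 56.2 CPM in saline replicate 1 and 41.8 CPM in early replicate 2, the 2 highest of the 12 libraries. Their ranges were 6.85 to 41.8 CPM in early, 13.3 to 56.2 CPM in saline and 11.2 to 20.0 CPM in vesicle cultures, and their part in these values was not tested. Only 4 of these markers passed the count filter, and Flt1 had the highest mean of them. Pecam1, the endothelial marker, was low throughout, at most 1.24 CPM in early replicate 4. In early replicate 2 it was at 0.146 CPM, the lowest of the 12 libraries. In saline replicate 1 it was at 1.09 CPM, the highest of the saline libraries.

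Vesicle cultures were also set against early ones. No member was called by edgeR, against 0.585% of all genes, while DESeq2 called 4 (Epha3, Ntn4, Sema3f and Sema4a) of 57, or 7.02%, against 5.12% of 17621 genes, and limma-voom and limma-trend called 0. At an unadjusted p under 0.05 there were 11 members, or 20.0%, against 19.2% of all genes; all of them were lower in vesicle cultures, against 10.9% of all genes lower. Below 0 were 38 members (69.1%), against 51.2% of all genes. The groups did not overlap in 4 members (7.27%, against 9.02%): Epha3, Sema3b, Efnb1 and Ntn4, all lower in vesicle cultures. For Efnb1 this rests on digits beyond those printed here, since early and vesicle replicate 3 both round to 23.7 CPM, and its FPKM overlapped (6.4 in that early and 6.88 in that vesicle library). Ntn4 lay at 89.2, 63.6, 71.4 and 92.9 CPM in the early libraries, 61.3, 58, 48.8 and 55.6 CPM in the vesicle libraries and 69.6, 60.8, 52.3 and 57 CPM in the saline libraries. The late groups overlapped, and the fold change of vesicle over early cultures was -0.50 ± 0.14 (SE; edgeR adjusted p = 0.114). Efnb1, whose loss affects neural progenitors in mice, lay at 31.3, 31.6, 23.7 and 28.9 CPM in the early and 22.2, 21.5, 23.7 and 20.6 CPM in the vesicle libraries (-0.39 ± 0.13, adjusted p = 0.142). The fold change of Efna5 was 0.05 ± 0.29 (adjusted p = 0.945). Eph receptors had a median of -0.51, with 11 of 12 below 0; the early libraries are shared with the comparison of saline cultures.

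The early libraries differed from each other in several members, chosen here after their values were seen. Sema4a, a transmembrane semaphorin known from immune cells, lay at 0.285, 3.43, 5.5 and 3.96 CPM in early replicates 1 to 4 and between 0.184 and 0.946 CPM in all late libraries. Early replicate 1 lay with the late libraries, as it did for Sox10. The fold change of saline over early cultures was -2.47 ± 0.69 (SE; edgeR adjusted p = 0.128; DESeq2 called it). Sema4a was near the limit of detection, with 11, 2, 6 and 11 reads in the saline libraries. Its early libraries held 4, 47, 65 and 48 reads. Epha4, a receptor of both ephrin classes, stood at 9.27, 13.4, 30.5 and 26.2 CPM in early replicates 1 to 4, lowest in replicate 1. Sema3c, a secreted semaphorin, was highest there, at 30.4, 8.69, 3.98 and 8.9 CPM, as was Unc5a, at 26.5, 19.3, 11 and 10.3 CPM. Without early replicate 1, 5 members were called between saline and early cultures (Efna5, Efnb3, Ephb6, Sema3c and Sema4a) among 1206 genes, and 8 between vesicle and early cultures (Efnb3, Ephb2, Ephb6, Plxna2, Sema3c, Sema3f, Sema4a and Sema6c) among 2821. On all 12 libraries 149 and 94 genes were called in these comparisons. Calls thus rose over all genes, and the counts of members are not read as a result about the members. Over the tested members the median SD of log2(CPM + 0.5) was 0.459 in early, 0.371 in saline and 0.269 in vesicle cultures, against 0.349, 0.242 and 0.205 over all genes tested.

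**Figure D4:**
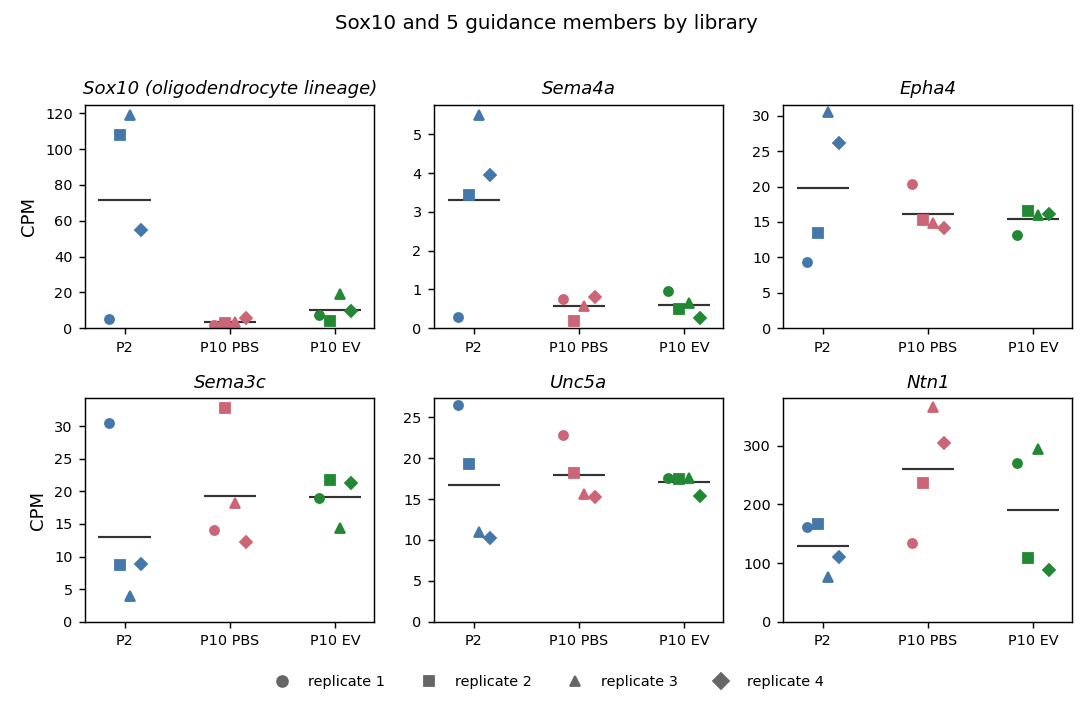
CPM (linear axis from 0) of the oligodendrocyte-lineage gene Sox10 and of 5 members by library, with the shape giving the replicate number and a line at the group mean. Early (P2) replicate 1 lies with the late libraries in Sox10 and Sema4a, and is the highest early library in Sema3c and Unc5a and the lowest in Epha4.

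Some members are neighbours in the genome. Efna1, Efna3 and Efna4 follow each other on chromosome 3 with gaps of 32757 and 10425 bases, and had fold changes of -1.18, 0.10 and 0.06 in saline over early cultures. Sema3b and Sema3f lie 72271 bases apart on chromosome 9 and had fold changes of -0.07 and -0.17. Ephb2 and Epha8 are 93431 bases apart and Sema3a and Sema3e 422711, but Epha8 and Sema3e were too low to test. Sema3d and Sema3a, further apart at 536466 bases on chromosome 5, had fold changes of 0.04 and 0.38. None of these was called by edgeR.

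Partners of the receptors were read from 3 lists. Of 26 tested co-receptors and effectors of semaphorin signalling, 2 fell in saline against early cultures and 0 rose, against 0.928% of all genes called, with a median of -0.04. Mical1, which oxidises actin downstream of plexins, lay at 29.4, 42.7, 73 and 51.7 CPM in the early libraries, 17.5, 20.9, 21.6 and 20.6 CPM in the saline libraries and 29.7, 30.3, 36.4 and 24.8 CPM in the vesicle libraries. All saline libraries were below all others, and the fold change of saline over early cultures was -1.29 ± 0.23 (SE; edgeR adjusted p = 0.0238). Dpysl3, of the collapsin response mediator proteins that act downstream of Sema3a, lay at 474, 638, 894 and 645 CPM in the early libraries, 383, 326, 330.0 and 394 CPM in the saline libraries and 390.0, 370.0, 386 and 349 CPM in the vesicle libraries. Both late groups were below every early library; it fell in saline cultures (-0.89 ± 0.16, adjusted p = 0.0248) and was the 1 gene of the list that fell in vesicle against early cultures, where 0.585% of all genes were called (-0.82 ± 0.16, adjusted p = 0.044).

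Of 20 tested netrin receptor partners and other Unc5 ligands, 1 fell in saline against early cultures, against 0.928% of all genes called, 0 rose, and the median was -0.007. It was Mcam, an adhesion protein reported to bind netrin 1, at 46.2, 41.9, 32.2 and 43.3 CPM in the early libraries, 17.4, 29.4, 16.8 and 21.6 CPM in the saline libraries and 24.8, 28.2, 29.5 and 24.5 CPM in the vesicle libraries (-0.94 ± 0.18 SE, edgeR adjusted p = 0.0304). Every late library was below every early one. Of 18 tested Eph receptor effectors 0 were called by edgeR in any comparison, and the median was 0.09 in saline over early cultures. Over the settings the adjusted p reached 0.0769 for Mical1, 0.121 for Mcam and 0.108 for Dpysl3 in saline against early cultures, and 0.142 for Dpysl3 in vesicle against early cultures. Calls were lost with the 8 libraries alone and without early replicate 4 or saline replicate 1, 3 or 4 for all 3 genes, without saline replicate 2 for Dpysl3, and without early replicate 2, vesicle replicate 2 or 3 or the 4 libraries with liver transcripts for Mcam. The call of Dpysl3 in vesicle cultures was lost with limma-voom, with the 8 libraries alone and without any single library except early replicate 1. With libraries blocked by replicate number the adjusted p of Dpysl3 came to 0.052 in saline and 0.0858 in vesicle against early cultures.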

How the data were processed

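The authors deposited raw counts per gene and FPKM per library in 1 table, and a second table that repeats these values was not used. The deposited FPKM are counts divided by gene length and library total: the length they imply varied over the libraries by a factor of up to 1.00004 over 12415 genes. HISAT2 2.0.4 and StringTie 1.3.0 are named, without a role, in the submitters' processing notes; for the counting program, its strand setting and the build the sources used here give nothing. For 49 of 61 members the deposited coordinates equal those of GENCODE M21 (GRCm38). Columns were matched to samples by library name, with 0 left over.

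Low genes were removed with filterByExpr (edgeR 4.0.16, minimum count 10), leaving 16058. A quasi-likelihood fit of group means under TMM scaling was made on all 12 libraries (9 residual degrees of freedom), p-values were adjusted by Benjamini-Hochberg over all genes tested, and a gene was called under 0.05. Fold changes are log2 values. Alternatives were DESeq2 1.42.0, its size factors, limma 3.58.1 (voom, and trend on log2(FPKM + 1)), no count filter, 8 libraries alone, a replicate block, and omission of libraries. The fit was tested on simulated counts.

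Members and lists were chosen with earlier results of these data known. Members named by rule were those called, those whose libraries did not overlap between any pair of groups at a fold of at least 2, and the highest of each family by FPKM; other names were picked after their values were seen. Between P10 EV and P10 PBS, the deviations of libraries with the same replicate number had correlations of 0.37, 0.148, 0.138 and 0.208. Libraries of unlike numbers were not correlated for comparison, so these values do not show that the numbers pair the samples. A number goes with 1 culture code in the names of the libraries. The main fit used no pairing, and the replicate block was an alternative. Between P10 PBS and P2 the correlations were -0.015, -0.084, -0.006 and 0.211, and between P10 EV and P2 they were 0.087, 0.125, 0.187 and 0.166.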

Additional observations from a re-analysis of the deposited data

Results flagged for a closer look

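In 3 of 66 groups of 4 libraries (22 members in 3 groups) a single P10 PBS library stood far from the others by the gap to its nearest neighbour over the range, which chance gives in about 1 of 20 groups. Epha5 lay at 59.9 CPM in P10 PBS replicate 1, against 98.3 to 104 CPM in the other saline libraries. Ephb6 lay at 6.39 CPM in P10 PBS replicate 4, against 9.13 to 9.64 CPM. Sema4b lay at 58.8 CPM in P10 PBS replicate 2, against 122 to 124 CPM.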

How the results depend on the processing

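At P10 PBS against P2, where 1 member was called, DESeq2 called 5, limma-voom 0, limma-trend on FPKM 0, the 8 libraries alone 0 and the fit without the 4 libraries with liver transcripts 10; leaving out 1 library gave 0 to 5. At P10 EV against P10 PBS, 1 was called by DESeq2 and 0 otherwise. At P10 EV against P2, 4 were called by DESeq2, 7 without the 4 libraries with liver transcripts, and 0 to 8 with 1 library left out. Counts over all genes went from 149 to 597 with DESeq2, 38 with the 8 libraries alone and 2320 without the liver-transcript libraries at P10 PBS against P2, and from 94 to 902, 30 and 3335 at P10 EV against P2; at P10 EV against P10 PBS DESeq2 called 62. Counts over all genes moved as well, so the counts of members are not read as a result about the members. The cause was not tested. The fit without liver-transcript libraries keeps only P2 replicates 3 and 4 and drops P2 replicate 1.

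The replicate block changed no call of a member; Efna5 in P10 PBS against P2 kept its call (adjusted p = 0.031). Under the block, log2 fold changes turned to 0.183 for Unc5b in P10 PBS against P2 and to -0.022 for Efna5 in P10 EV against P2. No fold change that turned its sign was called under the setting that turned it. In P10 PBS against P2, Unc5b turned to 0.059 with limma-voom, 0.051 with limma-trend, 0.003 with 8 libraries alone and 0.95 without the liver-transcript libraries. Under the last setting Efna2 turned to 0.066, Sema6d to -0.052 and Sema7a to 0.427. In P10 EV against P10 PBS, Ephb3 turned to 0.009 and Sema6d to 0.042 with limma-trend, and Sema5b to -0.067 without the liver-transcript libraries. In P10 EV against P2, Efna5 turned to -0.039 with limma-voom, Plxnc1 to 0.029 and Sema7a to 0.001 with limma-trend, and without the liver-transcript libraries Nrp1 turned to 0.021, Plxnb2 to 0.047, Sema6d to -0.072 and Sema7a to 0.459. The causes were not tested.

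With 1 library left out, ranges that crossed 0 in P10 PBS against P2 were -0.203 to 0.003 for Efna2, -0.015 to 0.139 for Plxnb2, -0.219 to 0.121 for Sema4b, -0.005 to 0.104 for Sema6d, -0.617 to 0.082 for Sema7a and -0.449 to 0.784 for Unc5b. In P10 EV against P10 PBS they were -0.01 to 0.27 for Epha5, -0.174 to 0.045 for Ephb3, -0.059 to 0.121 for Sema5b and -0.075 to 0.03 for Sema6d. In P10 EV against P2 they were -0.137 to 0.251 for Efna5, -0.208 to 0.101 for Plxnc1, -0.146 to 0.308 for Sema3a, -0.028 to 0.079 for Sema6d and -0.318 to 0.28 for Sema7a. On log2(FPKM + 1), a scale that understates low genes, the fold change of Efna5 in P10 PBS against P2 was -0.57. Its 17 to 27 reads per P10 PBS library limit the precision of that group.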
